A study of Mus musculus with 4 samples.

Results

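The connexin and pannexin genes described here are Panx1, Panx2, Panx3, Gja1, Gja4, Gjb2, Gjc1 and Gjc3, which make 8 of the 19938 genes measured. They were chosen by name, with their difference between days already known from the same 4 arrays, so their differences are given as a description and were not tested. The cells were ATDC5, a mouse chondroprogenitor line derived from a teratocarcinoma, so all samples came from 1 cell line. The day 0 group (2 arrays) was kept undifferentiated in basal medium with serum and ascorbic acid. The day 15 group (2 arrays) grew in the same medium with insulin, transferrin and selenite added for 15 days, and ascorbic acid was thus present in both groups. Neither group was cultured for 15 days without the supplement, so time in culture, supplement and differentiation cannot be told apart. The study asked how expression changes over the course of chondrogenesis.

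Connexins and pannexins are unrelated in sequence but share a plan of 4 membrane-spanning segments and assemble into large-pore channels. Connexin hemichannels of neighbouring cells dock to form gap junctions, through which ions and small metabolites pass from cell to cell. Pannexins mostly stay as single-membrane channels that release ATP, which then acts on purinergic receptors. In the skeleton, Gja1 encodes the main connexin of osteoblasts and cartilage cells, and Panx3 encodes a pannexin of prehypertrophic chondrocytes and osteoblasts that also conducts calcium out of the endoplasmic reticulum.

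Each array gave 1 intensity for each of 35512 probe sets, from 0.72 to 23103 on a linear scale, and each member had 1 probe set. Below, an intensity is the deposited linear value, and a log2 value is log2 of the intensity plus 1 after quantile normalization, which gives all arrays the same distribution. The number of arrays limits the precision, and the labels do not say that replicates came from separate cultures, so p-values reflect the spread among these 4 samples alone, part or all of which could be technical. With limma, 342 of 19938 genes (1.72%) had an adjusted p below 0.05 and are called, 260 higher (1.30%) and 82 lower (0.411%) at day 15, and leaving out the first or the second day 15 array gave 175 and 195 calls. The chondrocyte label was checked on 8 markers, of which Col2a1, Acan, Hapln1, Matn1 and Col10a1 were called higher and Sox9, Col9a1 and Comp were not called. The call of Col2a1 was lost without day 0 replicate 1, day 0 replicate 2 or day 15 replicate 2 (limma adjusted p 0.0673, 0.105 and 0.0518).

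The replicate 1 arrays of both days stood apart in genes of other cell types. Of 10 macrophage and microglia markers, 6 were at least 1 log2 higher in replicate 1 than in replicate 2 on both days, and 68 of all genes (0.341%) did so. The marker lists were chosen with earlier results of these data known, so these counts are a description. The complement gene C1qb had log2 values of 11.36 and 6.09 at day 0 and 11.11 and 5.80 at day 15 in replicates 1 and 2. The myelin genes Mbp and Mobp did the same, at 9.35 against 6.52 and 8.89 against 6.49 at day 0. The summed intensity of the 10 macrophage markers was 7895 and 2044 at day 0 and 13019 and 8825 at day 15. The day 15 sums include Tmem119, a gene also made by osteoblasts, which was called higher (3.76 ± 0.26 log2, SE; limma adjusted p = 0.00433). No member of the connexin and pannexin set differed by 1 log2 between replicates of a day. Differences between days are therefore also given within the replicate 1 arrays and within the replicate 2 arrays. These were bulk samples, in which more cells of a type and more RNA per cell cannot be told apart.

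**Figure D1:**
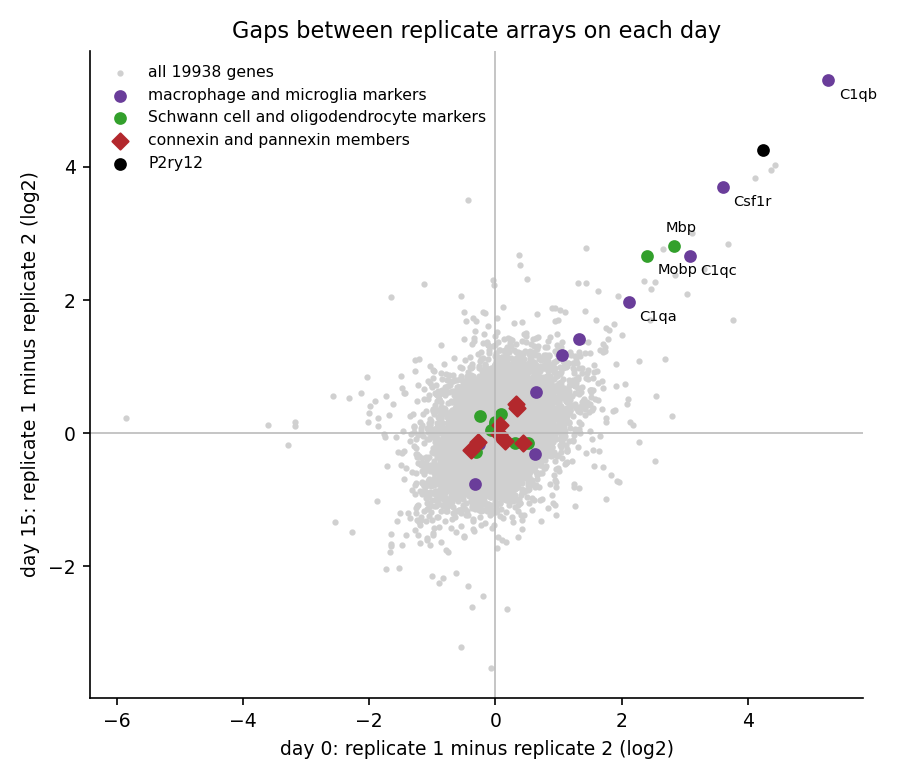
Each point is a gene, placed by its log2 value in replicate 1 minus replicate 2 at day 0 (horizontal) and at day 15 (vertical). The markers C1qb, Csf1r and Mbp lie far to the upper right, but not all markers of their lists do. Of the 10 macrophage markers 6 lie above 1 log2 on both axes, as do 2 of the 10 Schwann cell and oligodendrocyte markers. The 8 connexin and pannexin genes (red diamonds) lie within 0.45 log2 of 0 on both axes.

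Of the 3 pannexin genes, Panx3 was the one with a large difference between days. Its intensity at day 0 was 453 in replicate 1 and 575 in replicate 2, and at day 15 it was 10140.4 and 11309. Both day 15 arrays were far above both day 0 arrays, and the groups did not overlap. On the log2 scale Panx3 went from 9.04 ± 0.19 to 13.38 ± 0.09 (SD, n = 2 arrays per day), a difference of 4.34 log2 or 20.2-fold. Between the closest arrays of the different days 4.14 log2 remained. The difference was 4.41 log2 within the replicate 1 arrays and 4.27 within the replicate 2 arrays. It ranked 11th among the increases of all genes.

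Panx1, the broadly made pannexin that releases ATP, was measured at an intensity of 555 and 469 at day 0 and 791 and 613 at day 15. The log2 means were 9.03 ± 0.23 and 9.40 ± 0.32 (SD, n = 2), a difference of 0.37. Replicate 1 was above replicate 2 by 0.32 at day 0 and by 0.45 at day 15, so the gap between replicates was about as large as the difference between days. Replicate 2 of day 15 (9.18) lay just under replicate 1 of day 0 (9.19), so the groups overlapped after quantile normalization, although they did not on the deposited scaling. Within the replicate 1 arrays the difference was 0.43 and within the replicate 2 arrays 0.31. Leaving out day 15 replicate 1 brought it to 0.14, and leaving out day 15 replicate 2 to 0.61.

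Panx2, a pannexin best known from the nervous system, had an intensity of 327 and 463 at day 0 and 344 and 462 at day 15. Here the replicate 2 array was the higher on both days, by 0.39 and 0.26 log2, and the days overlapped. The difference between days was −0.05 log2 and changed sign to 0.04 on the deposited scaling.

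Gjc3 had the largest difference of the connexins. It encodes a connexin known mainly from Schwann cells, oligodendrocytes and the cochlea. At day 0 its intensity was 104 and 83.2, and at day 15 it was 2492 and 2757. At day 0 both arrays were below the median of all gene values (8.72 log2), where signal may lie at background, and at day 15 both were above it. The log2 mean went from 6.52 ± 0.31 to 11.34 ± 0.11 (SD, n = 2), a difference of 4.83 log2 or 28.3-fold, the 8th largest increase of all genes. This is a fold of intensities, and with day 0 signal that may be background it can understate the fold of RNA. The groups did not overlap, and the closest arrays of the different days were 4.53 log2 apart. The larger spread was at day 0, where replicate 1 was above replicate 2 by 0.44 log2, a gap larger than in 81.9% of all genes. At day 15 replicate 2 was the higher, by 0.15. The part that the source of the replicate 1 Mbp and Mobp signal has in the day 0 values was not tested.

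Markers of the cells known for Gjc3 were looked at beside it. None of 10 measured Schwann cell and oligodendrocyte markers was called (limma; 1 had an unadjusted p below 0.05), and their median difference was 0.03 log2 against 0.02 over all genes. Their summed intensity was 16239 and 15496 at day 0 and 21641 and 19866 at day 15. Sox10, the transcription factor that defines both lineages, had log2 values of 8.25 and 8.16 at day 0 and 8.19 and 7.90 at day 15, which overlapped and stayed below the median of all genes. Olig1 and Mog also stayed below that median on all 4 arrays. Of the 10 markers, 2 had a day 0 mean at or above it, and 2 a day 15 mean. Mbp and Mobp were above it in replicate 1 at day 0. Cnp, a myelin enzyme also present in other cells, was 1.19 ± 0.22 log2 higher (SE; limma adjusted p = 0.0824) and was called with an intensity trend and robust hyperparameters (limma adjusted p = 0.0485). The difference of Gjc3 was 4.53 log2 within the replicate 1 arrays, which carry Mbp and Mobp signal, and 5.12 within the replicate 2 arrays.

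**Figure D2:**
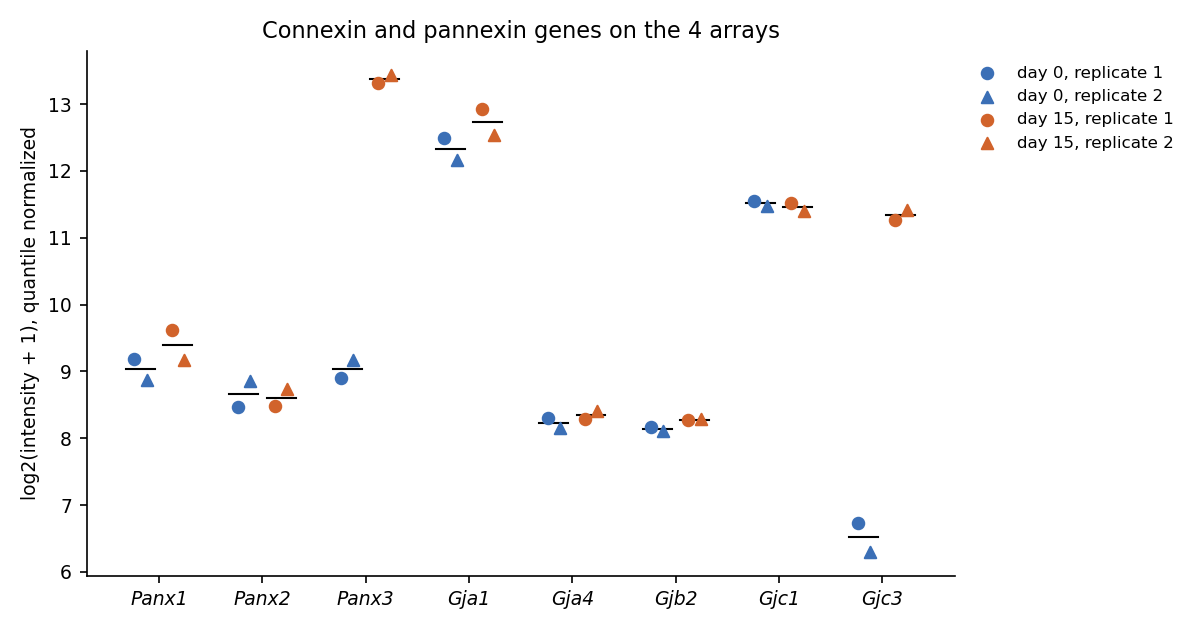
Log2 intensity of the 8 genes on each array, with day 0 in blue, day 15 in orange, circles for replicate 1, triangles for replicate 2 and a black line at the mean of each day. Panx3 (9.04 to 13.38) and Gjc3 (6.52 to 11.34) are widely separated by day, and the other 6 genes have day means within 0.40 log2 of each other.

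Gja1 was already bright before differentiation. Its intensity was 5717 and 4522 at day 0 and 7893 and 6007 at day 15. On the log2 scale the means were 12.33 ± 0.24 and 12.73 ± 0.27 (SD, n = 2), a difference of 0.40 log2 or 1.32-fold. Replicate 1 was the higher array on both days, by 0.34 at day 0 and 0.38 at day 15, and the lower day 15 array (12.54) was only 0.04 above the higher day 0 array (12.50). The groups overlapped when each array was centred on its median instead. Within the replicate 1 arrays the difference was 0.42 and within the replicate 2 arrays 0.38. Leaving out day 15 replicate 1 gave 0.21, and leaving out day 15 replicate 2 gave 0.59. For Gja1 and Panx1 alike, the replicate 1 arrays, with more macrophage marker, Mbp and Mobp signal, were the higher ones. The part that the source of that signal has in these values was not tested.

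The 3 remaining connexins differed by less than 0.20 log2 between days. Gjc1, a connexin of smooth muscle, heart and mesenchyme, had an intensity of 2971 and 2837 at day 0 and 2958 and 2720.5 at day 15. All 4 arrays lay within 0.15 log2 of each other, the days overlapped, and the difference was −0.05 log2. Gja4, a connexin of arterial endothelium, was measured at 295 and 286 at day 0 and 300.4 and 369.8 at day 15. Its difference was 0.13 log2, from −0.01 within the replicate 1 arrays and 0.26 within the replicate 2 arrays, and the days overlapped after quantile normalization but not on the other scalings. Beside Gja4, none of 6 endothelial markers was called (limma; 1 had an unadjusted p below 0.05). Their summed intensity was 805 and 849.8 at day 0 and 856 and 905 at day 15, and Pecam1 and Cdh5 lay below the median of all genes on every array.

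Gjb2, a connexin of epithelia and the cochlea, had an intensity of 271 and 281 at day 0 and 295 and 339 at day 15. Its day 15 arrays were above its day 0 arrays by 0.10 log2 at the closest, and the difference of means was 0.13 log2. The replicates were 0.05 and 0.02 log2 apart, closer than the median gap of all genes (0.20 at day 0 and 0.22 at day 15), which exceeds this difference. None of 6 epithelial markers was called or had an unadjusted p below 0.05 with limma, and their summed intensity was 1277 and 1289 at day 0 and 1241 and 1274 at day 15. Gjb2, Gja4 and Panx2 had day means below the median of all gene values on both days, although Panx2 was above it on both replicate 2 arrays (8.85 and 8.74).

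Over the 8 genes the median difference was 0.25 log2, against 0.02 over all genes, and 2 (Panx3 and Gjc3) were at least 2-fold higher while none was at least 2-fold lower. Among all genes 2.79% were at least 2-fold higher and 1.17% at least 2-fold lower. Day 15 lay wholly above day 0 for Panx3, Gja1, Gjb2 and Gjc3, which 22.3% of all genes did, and wholly below it for none of the 8, against 17.8% of all genes (40.1% in either direction). On the deposited scaling, where 38.7% of all genes did not overlap in either direction, Panx1 and Gja4 joined them. After median centring, with 37.2% of all genes not overlapping, Gja4 joined and Gja1 left. These counts describe genes that were picked on this contrast.

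RefSeq sequences of the region from 250 bases before to 50 bases after a transcription start, on build GRCm38.p6, were found for 5 of the 8 genes. None was found for Panx2, Panx3 and Gjc1, so Panx3, with its large difference, was not searched. Sequences are shown for the 3 of the 5 genes with the largest difference between days, as the DNA at which each start lies. Capitals mark matches to any of 6 short motifs searched on both strands: AP-1 (TGANTCA), CRE (TGACGTCA), Runx (TGTGGT), Sox (AACAAT), GC box (GGGCGG) and TATA box (TATAAA). The Gjc3 region lies on the minus strand at chr5:137963049-137963348, that of Gja1 on the plus strand at chr10:56377050-56377349 and that of Panx1 on the minus strand at chr9:15045429-15045728.
Gjc3: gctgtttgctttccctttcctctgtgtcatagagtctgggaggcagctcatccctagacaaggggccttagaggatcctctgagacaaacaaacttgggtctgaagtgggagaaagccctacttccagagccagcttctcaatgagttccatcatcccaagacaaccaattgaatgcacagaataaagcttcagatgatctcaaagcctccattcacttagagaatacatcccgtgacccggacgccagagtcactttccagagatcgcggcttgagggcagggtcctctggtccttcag
Gja1: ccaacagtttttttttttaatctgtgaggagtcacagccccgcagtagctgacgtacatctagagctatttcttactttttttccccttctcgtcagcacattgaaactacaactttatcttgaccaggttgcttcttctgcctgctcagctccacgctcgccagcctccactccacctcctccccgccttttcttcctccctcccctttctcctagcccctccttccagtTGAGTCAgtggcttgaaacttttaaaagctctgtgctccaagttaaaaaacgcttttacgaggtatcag
Panx1: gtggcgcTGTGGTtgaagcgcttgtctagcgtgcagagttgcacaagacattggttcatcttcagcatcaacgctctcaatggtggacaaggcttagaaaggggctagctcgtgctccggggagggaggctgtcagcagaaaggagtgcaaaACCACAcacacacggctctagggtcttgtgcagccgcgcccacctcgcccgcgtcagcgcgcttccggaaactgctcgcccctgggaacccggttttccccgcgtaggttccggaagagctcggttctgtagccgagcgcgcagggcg

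The Gjc3 region held none of the 6 motifs. That of Gja1 held 1 AP-1 match, whose first base was 19 bases before the start, and AP-1 matches were present in 7.81% of the 32851 promoter regions in the table. That of Panx1 held 2 Runx matches, 243 and 98 bases before the start, and 16.8% of all regions held at least 1. Runx factors are regulators of chondrocyte hypertrophy and bone. The Gja4 region held 1 GC box and that of Gjb2 held 2, and 35.7% of all regions held at least 1. The regions also differed in base composition: Gjc3 had 5 CG dinucleotides and 50.7% G and C, Gja1 had 8 and 47.7%, Panx1 had 25 and 61.3%, and the median region had 7 and 52.7%. These are matches of letters only, and none was tested for binding.

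Of the other connexin genes 11 were measured. None of them was called (limma; none had an unadjusted p below 0.05), against 1.72% of all genes called, and their differences ran from −0.17 to 0.39 log2 with a median of −0.01. The extremes were Gjb6, a connexin of astrocytes and the cochlea, at 0.39 ± 0.16 log2 (SE; limma adjusted p = 0.442), and Gja5, a connexin of arteries and atrium, at −0.17 ± 0.20 (0.882). Gjb6 had log2 values of 6.39 and 6.51 at day 0 against 6.86 and 6.81 at day 15. For 10 of the 11 all 4 arrays were below the median of all gene values, the exception being Gjd3. Of the 19 connexin and pannexin genes measured, 2 were at least 2-fold higher at day 15, against 2.79% of all genes. None was at least 2-fold lower, against 1.17% of all genes. The 2 were Panx3 and Gjc3, which had been picked with this difference known, so the count is a description and not a test of the family.

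**Figure D3:**
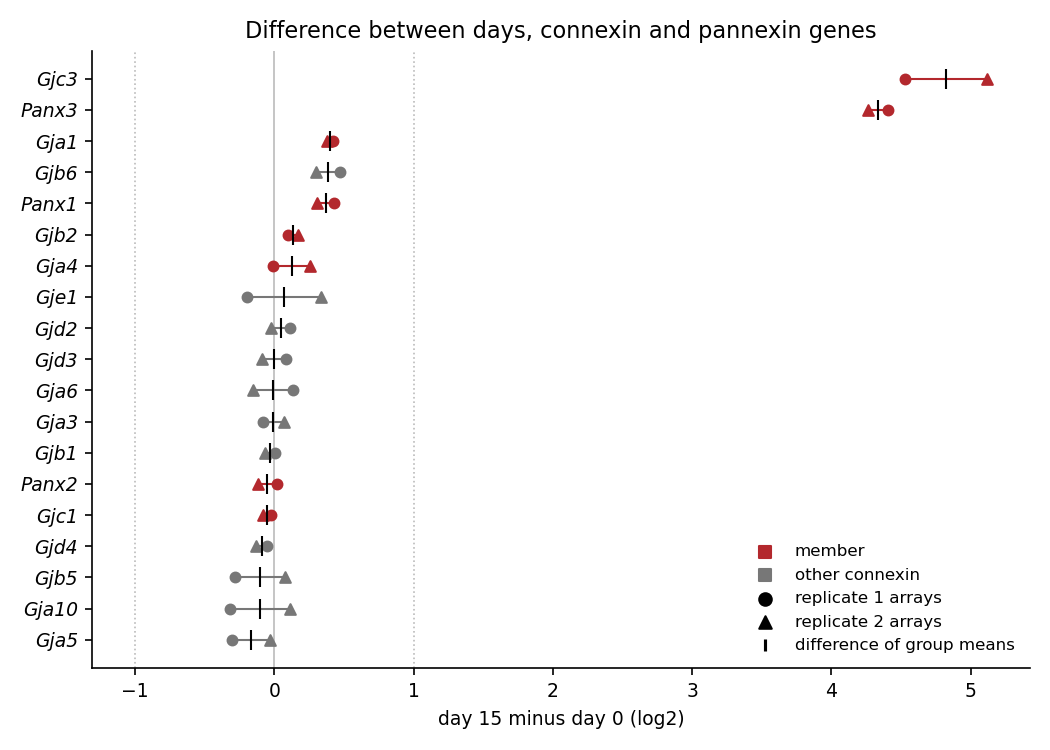
Difference between days in log2 for the 8 members (red) and 11 other connexin genes (grey), within the replicate 1 arrays (circles), within the replicate 2 arrays (triangles) and between the means of the days (black ticks), with dotted lines at 2-fold. Gjc3 and Panx3 lie beyond 4 log2 in both pairs of arrays, and all others lie between the dotted lines.

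Genes that act with connexins and pannexins were read from 4 further lists, which with the other connexins came to 73 measured genes. None of the 73 was called (limma), a count near the background of 1.72%. An unadjusted p below 0.05 was reached by 12 of the 73, against 12.2% of all genes, and the counts of this kind given for the separate lists rest on few genes. Of 20 partners and regulators of connexin channels, 3 had an unadjusted p below 0.05 and the median difference was 0.03 log2. Ccn3, a secreted matricellular protein that binds the main connexin's tail, was at 8.24 and 7.46 at day 0 and 9.96 and 8.67 at day 15, a difference of 1.46 ± 0.47 log2 (SE; limma adjusted p = 0.282). The arrays of the days did not overlap, but the day 15 replicates lay 1.29 log2 apart. Its difference was 1.72 within the replicate 1 arrays and 1.21 within the replicate 2 arrays. Leaving out day 15 replicate 1 gave 0.81 log2, and leaving out day 15 replicate 2 gave 2.13. Ubqln4, which delivers connexin to the proteasome, was −0.94 ± 0.21 log2 (limma adjusted p = 0.135). Tjp1, the scaffold that edges gap junction plaques, had a difference of 0.07 ± 0.21 log2 (limma adjusted p = 0.978).

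Receptors for ATP and UTP, on which ATP released by pannexins acts, gave no call among 15 measured, with 4 at an unadjusted p below 0.05 and a median of 0.04 log2. P2rx4, a calcium-permeable ATP-gated channel, had the largest difference. It was at 11.27 and 10.84 at day 0 and 12.15 and 11.62 at day 15 (0.82 ± 0.26 log2, SE; limma adjusted p = 0.264). P2rx5, of the same ATP-gated family, followed with 0.70 ± 0.18 (limma adjusted p = 0.179). P2rx7, the ATP receptor most tied to Panx1, was at 9.14 and 8.15 at day 0 and 9.39 and 8.83 at day 15, so its days overlapped and its replicate 1 arrays were the higher. P2ry12, an ADP receptor that marks microglia, was at 10.15 and 5.91 at day 0 and at 10.37 and 6.12 at day 15. It thus separated the replicates and not the days, together with C1qb and Csf1r.

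Other routes of ATP release and large-pore channels likewise gave no call among 14 measured, with 3 at an unadjusted p below 0.05 and a median of −0.05 log2. Slco2a1, a prostaglandin carrier linked to large anion channels, was at 9.12 and 11.13 at day 0 and 8.35 and 8.05 at day 15. The difference of the means, −1.92 ± 0.62 log2 (SE; limma adjusted p = 0.280), came with day 0 arrays that lay 2.00 log2 apart and was not called. Without day 0 replicate 1 it was −2.90 and called (limma adjusted p = 0.00677), and without day 0 replicate 2 it was −0.93 (0.291). Calhm5, of a family that includes ATP-permeable channels, was at 8.86 and 9.73 at day 0 and 11.10 and 9.77 at day 15 (1.14 ± 0.49 log2, SE; limma adjusted p = 0.451). Its difference was 2.24 within the replicate 1 arrays and 0.05 within the replicate 2 arrays, and it ran from 0.47 without day 15 replicate 1 to 1.83 without day 15 replicate 2. Among 13 genes of calcium release from the endoplasmic reticulum and store-operated entry, none was called and 2 had an unadjusted p below 0.05. Itpr3, a receptor for inositol trisphosphate, was at 10.85 and 10.42 at day 0 and 9.44 and 9.52 at day 15 (−1.15 ± 0.21 log2, SE; limma adjusted p = 0.0716). Stim1, the calcium sensor of the store, was at 0.44 ± 0.16 (limma adjusted p = 0.355).

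**Figure D4:**
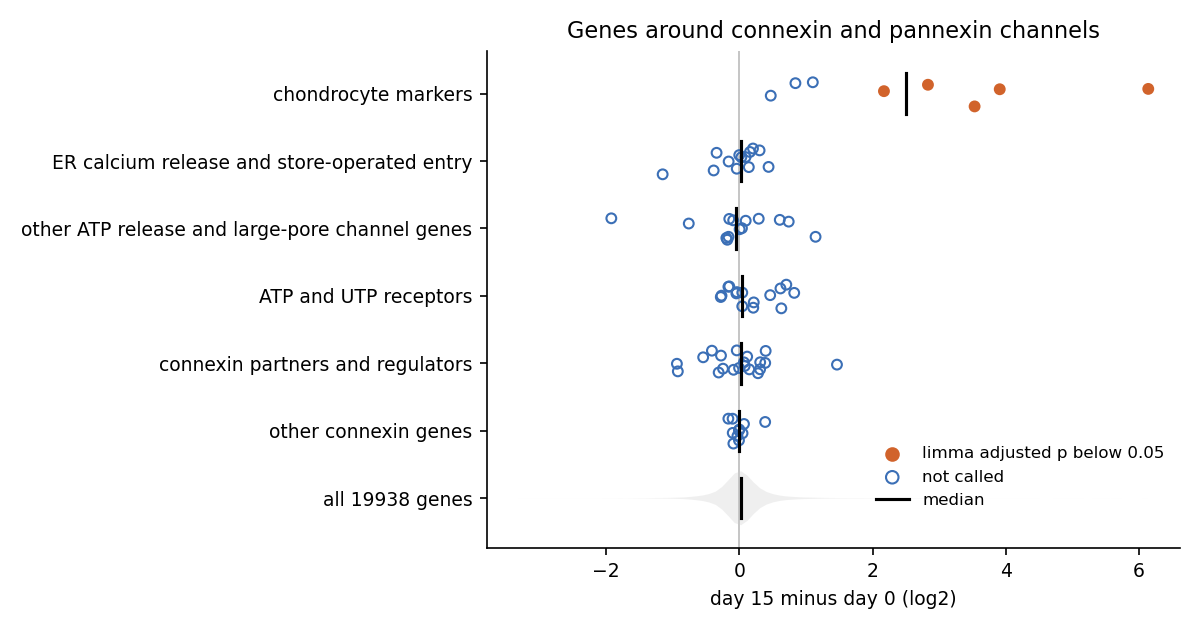
Difference between days in log2 for each gene of the lists around connexin and pannexin channels and of the chondrocyte markers, with black lines at the medians and the distribution of all genes in grey. Filled orange points passed limma's adjusted p of 0.05: none in the channel lists, and 5 of 8 chondrocyte markers.

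The genes whose pattern over the 4 arrays was nearest to those of Panx3 and Gjc3 were found by the Euclidean distance between log2 values, each gene centred on its own mean. With 4 arrays this measure mostly matches the size of the difference between days, and it is a description. For Panx3 they were Gbp8, a guanylate-binding protein (distance 0.20 log2), Slpi, a secreted protease inhibitor (0.44), Col10a1, the type X collagen of hypertrophic cartilage (0.50), and Dpt, a small matrix protein that binds decorin (0.55). Col10a1 was at 6.99 and 7.64 at day 0 and at 11.19 and 11.27 at day 15. For Gjc3 they were Ly6a2, of the Ly6 family (0.41), Frzb, a secreted Wnt antagonist of cartilage (0.48), Rnase2a, a ribonuclease (0.65), and Dpt (0.65). Frzb was at 5.88 and 5.79 at day 0 and at 10.55 and 11.20 at day 15. Gbp8, Ly6a2 and Rnase2a belong to families of similar genes that their probe sets may not tell apart.

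**Figure D5:**
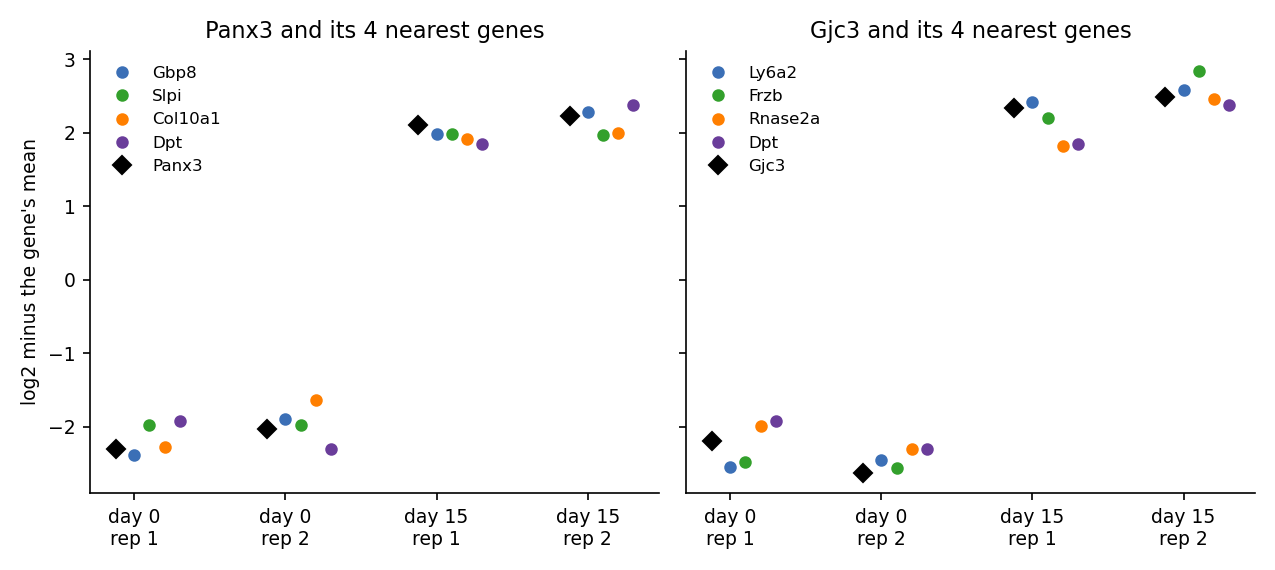
Log2 value minus the gene's own mean on each array, for Panx3 (left, black diamonds) and Gjc3 (right, black diamonds) with their 4 nearest genes (coloured circles, shifted sideways for legibility). All lie well below their mean on the day 0 arrays and well above it on the day 15 arrays. The distances run from 0.20 to 0.55 log2 from Panx3 and from 0.41 to 0.65 from Gjc3.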

How the data were processed

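Total RNA of 4 ATDC5 samples was labelled with biotin and hybridised to 1-colour whole-transcript arrays, per the labels' protocols. The authors deposited 1 intensity for each probe set and array, already processed, and its linear scale was read off the values. How background, probe summaries and array scaling were handled is not stated in these sources, and the genome build was mm9 per the submitters' processing notes. The platform annotation pairs 21789 of 35512 probe sets with 1 gene symbol, 1621 with several and none with the other 12102, and only the first were used. Symbols were updated through 21698 gene identifiers matched in RefSeq, and the brightest probe set stood for a gene, which left 19938 genes. Values were turned to log2 after adding 1 and quantile normalized over all probe sets, since the arrays' medians differed by 0.20 log2.

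The fit (day 15 minus day 0, no other term) was made by lmFit and eBayes of limma 3.58.1, run under R 4.3.3,, with Benjamini-Hochberg adjustment over all genes and a threshold of 0.05. SE is limma's moderated standard error and SD the spread of 2 arrays. Some list genes are not reported here. The members and gene lists were chosen with earlier results of these data known. Genes named in the text are the members, called list genes or the 2 largest differences of a list, and the 4 nearest profiles; Mbp, Mobp, C1qb, Csf1r, Sox10, Olig1, Mog, Sox9, Col9a1, Comp, Cdh5, P2rx7, P2ry12, Tjp1 and Gjd3 were added after their values were seen. Alternatives were the deposited scaling, median centring, a trend with robust hyperparameters, a filter at the median level, a block for replicate number, probe sets averaged per gene, a pseudocount of 16 and leaving out each array. Figures were drawn with matplotlib 3.10.9.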

Additional observations from a re-analysis of the deposited data

How the results depend on the processing

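The count of called genes was 342 and lay between 282 and 451 under the alternatives that kept all 4 arrays and no block. Leaving out 1 array gave 175 to 286, and the single array left on a day then takes its spread from the pair of the other day. With the replicate number as a block 628 of all 19938 genes were called in place of 342. Of the 73 genes of the connexin and pannexin lists, 3 passed in place of 0: Ccn3, Ubqln4 and Itpr3 (limma adjusted p 0.0255, 0.0413 and 0.0461). The list count thus rose together with that of all genes. Of the marker genes Phex and Cd68 also passed with this block (limma adjusted p 0.0117 and 0.0233), and 6 of 8 chondrocyte markers passed in place of 5. The labels do not say that the numbers mark shared cultures, but the replicate gaps of the days correlated at 0.40 across genes, which are not independent. Leaving out 1 array gave 0 to 1 called list genes, the 1 being Slco2a1. The median difference of the 8 members stayed between 0.16 and 0.36 log2; the filter at the median left 5 of them, so it gives no such median. Panx3 stayed between 4.18 and 4.47 log2 and Gjc3 between 4.61 and 5.04 under all 11 alternatives. Dim genes such as Gjb2, Gja4 and Gjc3 at day 0 may lie at background, which the intensities alone do not settle.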

Other observations

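Other cell type markers were read with the same limma fit. Of 5 osteoblast markers 1 was called higher, Ibsp (5.36 ± 0.17 log2, SE), against 1.30% of all genes called higher, and Phex, a peptidase of mineralizing cells, was at 2.55 ± 0.48 (limma adjusted p = 0.083) and was called without day 15 replicate 2 (3.29, limma adjusted p = 0.021). None of 6 astrocyte markers was called (limma; 1 had an unadjusted p below 0.05), with a median of 0.33 log2 against 0.02 over all genes; Slc1a2 and Slc1a3, both glutamate carriers, were at 0.79 ± 0.37 and 0.50 ± 0.16. Slc1a2 was at 1.36 without day 0 replicate 1 and at 0.24 without day 0 replicate 2. None of 7 neuron markers was called or had an unadjusted p below 0.05 (limma), with a median of 0.02 log2, and all 7 had day means below the median of all genes. Cd68, a lysosomal protein of macrophages, was at 9.41 and 8.10 at day 0 and 10.66 and 9.24 at day 15, so its arrays overlapped between days, while the difference was 1.25 within the replicate 1 arrays and 1.15 within the replicate 2 arrays. Leaving out 1 array moved its difference of 1.20 to between 0.48 and 1.93. The largest differences of the remaining marker lists, none of them called, were 0.64 ± 0.23 log2 (SE) for the endothelial Emcn, −0.19 ± 0.16 for the epithelial Krt14, 0.32 ± 0.17 for the myelin protein Pmp22 beside Cnp, and 0.31 ± 0.16 for the neuronal Gad1.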
